A study of Mus musculus with 12 samples.

Results

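The genes described here encode the potassium, calcium and sodium channels of mouse pancreatic islets, with the subunits of the ATP-sensitive potassium (KATP) channel as the centre. Members were all protein-coding genes of GENCODE release M21 whose symbols start with Kcn or Cacn, or with Hcn or Scn and a number, plus Abcc8 and Abcc9, which encode the regulatory subunits of KATP channels. Of 140 such genes, 134 were among the 22141 genes in the table and the other 6 (Cacng6, Kcna10, Kcne1, Kcnmb3, Kcns2 and Kcnv1) were not analysed here. The rule reads gene symbols and no measured value, but it was set with earlier results of these data known. Enough counts for a test were present for 102 of the 134, and the 32 others had between 1 and 77 counts over all libraries together.

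RNA was sequenced from islets of male WT mice aged 10 to 12 weeks, kept in cultures of roughly 120 islets. Each of 4 groups had 3 libraries: vehicle alone, C3a with vehicle, palmitate alone, and C3a with palmitate. All groups were cultured, so none shows fresh islets. Palmitate is a saturated fatty acid used to put a lipid load on islets, and C3a is the small peptide released when complement C3 is cleaved, which acts on its own G protein-coupled receptor. The labels give no strain, dose or culture time, and do not say whether the islets of several mice were pooled, so p-values here reflect only how far these cultures vary. Library 1 of each group belonged to sequencing batch 1, and libraries 2 and 3 to batch 2.

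In beta cells, glucose metabolism raises ATP, which closes KATP channels made of the pore Kir6.2 (Kcnj11) and the sulfonylurea receptor SUR1 (Abcc8). The membrane then depolarises, voltage-gated calcium channels open, and calcium entry releases insulin. Voltage-gated, calcium-activated and background potassium channels repolarise the cell between action potentials. A related KATP pore and receptor, Kcnj8 and Abcc9, are known from pericytes and smooth muscle of blood vessels.

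Both KATP gene pairs are neighbours in the genome, and the stretch upstream of 4 genes whose levels carry the palmitate results is shown: Kcnj8 and Abcc9 because both fell, and Kcnk16 and Kcnip1 because they were the most abundant of the genes called in their families. Each is the 250 bases before the RefSeq start on the gene's own minus strand, build GRCm38.p6, read 5′ to 3′. The gene's most abundant transcript starts downstream of that point, by 243 bases for Kcnj8, 56 for Abcc9, 70 for Kcnk16 and 159 for Kcnip1. The intervals are chr6:142571615-142571864 for Kcnj8, chr6:142702275-142702524 for Abcc9, chr14:20269270-20269519 for Kcnk16 and chr11:33843687-33843936 for Kcnip1. Capitals mark the bases in a match, on either strand, to any of 7 motifs: the E-box CANNTG, the GC box GGGCGG, the TATA box TATAAA, the cAMP response element TGACGTCA, the CEBP-ATF composite element TGATGNAA, the homeodomain site TAATTA and the PPAR response element, a repeat of AGGTCA with 1 base between.
Kcnj8: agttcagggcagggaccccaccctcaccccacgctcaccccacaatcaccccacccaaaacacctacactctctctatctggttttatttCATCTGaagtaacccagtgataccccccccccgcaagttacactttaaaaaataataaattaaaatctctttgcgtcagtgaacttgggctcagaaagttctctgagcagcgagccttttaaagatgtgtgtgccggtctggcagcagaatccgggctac
Abcc9: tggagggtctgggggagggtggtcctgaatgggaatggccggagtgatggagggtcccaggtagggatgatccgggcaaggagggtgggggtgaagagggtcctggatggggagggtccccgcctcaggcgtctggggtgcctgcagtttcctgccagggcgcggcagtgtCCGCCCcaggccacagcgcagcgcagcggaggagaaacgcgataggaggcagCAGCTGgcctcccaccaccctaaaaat
Kcnk16: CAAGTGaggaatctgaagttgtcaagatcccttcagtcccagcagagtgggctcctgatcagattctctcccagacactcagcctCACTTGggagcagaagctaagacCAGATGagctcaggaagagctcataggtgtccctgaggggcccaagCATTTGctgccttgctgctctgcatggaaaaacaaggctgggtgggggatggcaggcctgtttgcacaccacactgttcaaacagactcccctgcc
Kcnip1: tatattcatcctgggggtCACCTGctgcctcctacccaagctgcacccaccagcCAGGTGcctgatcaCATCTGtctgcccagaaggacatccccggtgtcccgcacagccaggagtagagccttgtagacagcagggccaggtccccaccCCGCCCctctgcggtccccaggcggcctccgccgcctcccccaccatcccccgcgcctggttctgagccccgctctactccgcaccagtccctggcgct

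The Kcnj8 stretch held 1 E-box and no GC box, that of Abcc9 1 of each, that of Kcnk16 4 E-boxes, and that of Kcnip1 3 E-boxes and 1 GC box. An E-box match was present in 66.2% of 32817 RefSeq stretches of the same length and in 60 of the 88 channel genes with a RefSeq start within 500 bases of their most abundant transcript (68.2%). The GC box was found in 32.7% of all stretches and in 44 of the 88 channel genes, and the TATA box in 12.4% of all and in 2 of the 88. No match to the cAMP, homeodomain or PPAR letters lay in the channel stretches, against 1.55%, 4.85% and 0.034% of all stretches. Median GC content was 61.0% for the channel genes and 52.4% for all stretches. These letters describe the windows and were not tested against the changes.

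Channel levels in the cultured islets were led by Abcc8, the receptor subunit of the beta cell KATP channel. Per transcript length (TPM, the length-scaled share of transcripts in a library, mean over 12 libraries), Abcc8 stood at 300.4, Kcnk16 at 178, Kcnj11 at 98.9, Cacna2d1 at 57.7, Kcnip1 at 56.2 and Kcnmb2 at 46.2. Further levels were Kcnh2 at 39.4, Cacnb3 at 38.0, Kcnma1 at 26.2, Kcnk1 at 26.1, Cacna1d at 26.0, Kcnh6 at 25.6, Cacna1a at 25.3 and Hcn2 at 17.4 TPM. By family, the 4 KATP genes made up 33.8% of all channel TPM and the 2-pore-domain genes 18.3%. The voltage-gated potassium pores followed with 9.80%, the calcium- and sodium-activated potassium channels with 7.87% and the accessory subunits of voltage-gated potassium channels with 7.07%. The calcium channel pores held 6.28% and the sodium channel pores 1.67%. Abcc8 lay 2.82 to 3.29 times above Kcnj11 per length in each of the 12 libraries. Each of these genes had 1 transcript in the table, so the ratio depends on the annotated length of that transcript. All channel genes together took 1047 to 1309 TPM.

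**Figure D1:**
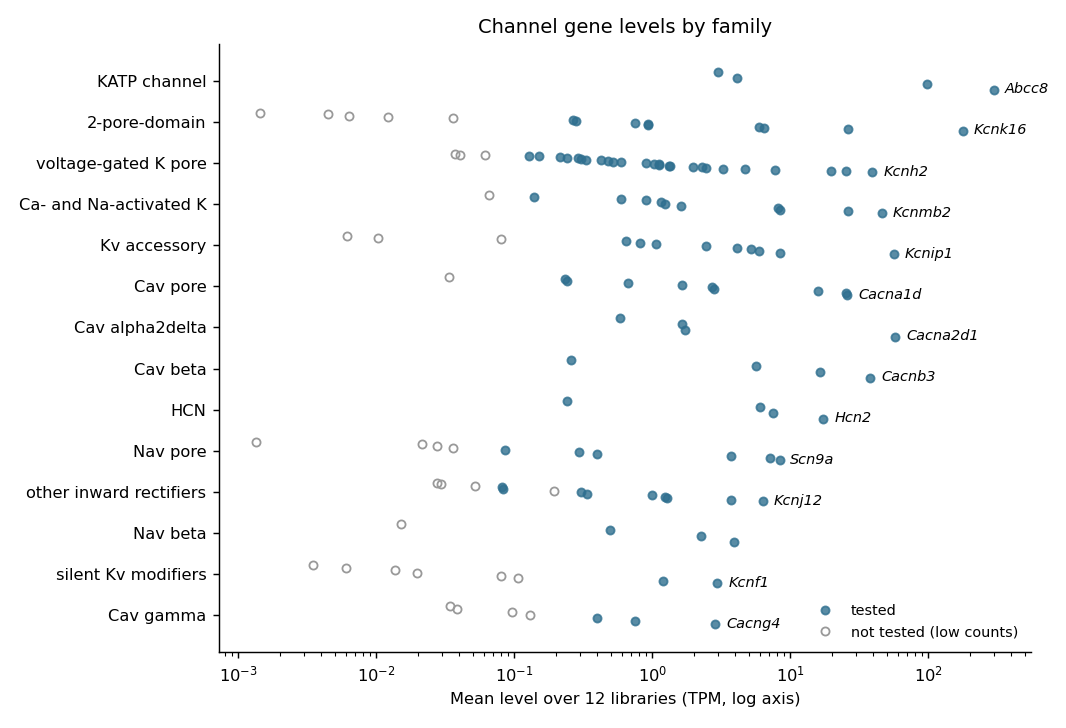
Mean level of each of the 134 channel genes over 12 libraries in TPM (log axis), by family, with the families ordered by their summed level and the gene with the highest level named in 13 of the 14. Filled points are the 102 genes tested and open points the 32 with too few counts; Abcc8 at 300.4, Kcnk16 at 178 and Kcnj11 at 98.9 TPM stand to the right of the other families.

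Total counts ran from 22216420 to 26110989 in the 4 libraries of batch 1 and from 35876350 to 50264695 in the 8 of batch 2, so the second batch counts low genes more precisely. The beta cell markers fixed for this work (10 genes, Ins1, Ins2 and Iapp among them) summed to between 134577 and 192748 CPM in the 12 libraries. CPM is the count scaled to library size. By the test described below, 5 of the 10 were lower with palmitate in each palmitate comparison. The share of all genes lower was 12.0% without C3a and 13.1% with it. Acinar markers summed to 2078 to 4369 CPM. Duct markers went the other way from the beta cell markers. They summed to 229 to 330 CPM in vehicle and 210 to 284 in vehicle with C3a. In palmitate they summed to 371 to 422 CPM, and in palmitate with C3a to 408 to 445. Of the 5 duct markers tested, 2 rose with palmitate without C3a and 1 with it, where 13.4% and 13.8% of all genes rose. Fibroblast markers summed to 265 to 569 CPM in vehicle and 333 to 375 in vehicle with C3a. Palmitate with C3a library 3 stood apart, at 1430 CPM, as did palmitate library 1, at 710 CPM. The other palmitate libraries lay below all libraries without palmitate, at 153 and 185 CPM without C3a and 143 and 169 with it.

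Palmitate against vehicle asks which channel genes changed under the fatty acid. Of 102 channel genes tested, 18 fell and 6 rose (edgeR quasi-likelihood test, Benjamini-Hochberg adjusted p under 0.05 over all 15794 genes tested, called a change from here on). That is 23.5% of the channel genes, where 25.4% of all genes were called. The direction was uneven: 17.6% of channel genes fell where 12.0% of all genes did, and 5.88% rose where 13.4% of all genes did. At an unadjusted p under 0.05 the share of all genes was 36.4%. The median log2 fold change was -0.18 over the channel genes and -0.02 over all genes tested.

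With C3a in both arms, palmitate lowered 18 channel genes and raised 7, or 24.5% called, where 26.9% of all genes were called (13.1% lower and 13.8% higher, and 37.2% at an unadjusted p under 0.05). The median log2 fold change was -0.10 over the channel genes and 0.01 over all genes. The pairs of groups share no library, although all libraries share 1 estimate of the spread. In both comparisons 16 channel genes fell and 6 rose, and 75 changed in neither. The matching counts over all genes are not given here, so this overlap is not read as particular to channels. The groups did not overlap for 30 of the 102 channel genes tested in each comparison, which is near the 29.8% and 30.0% of all genes.

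**Figure D2:**
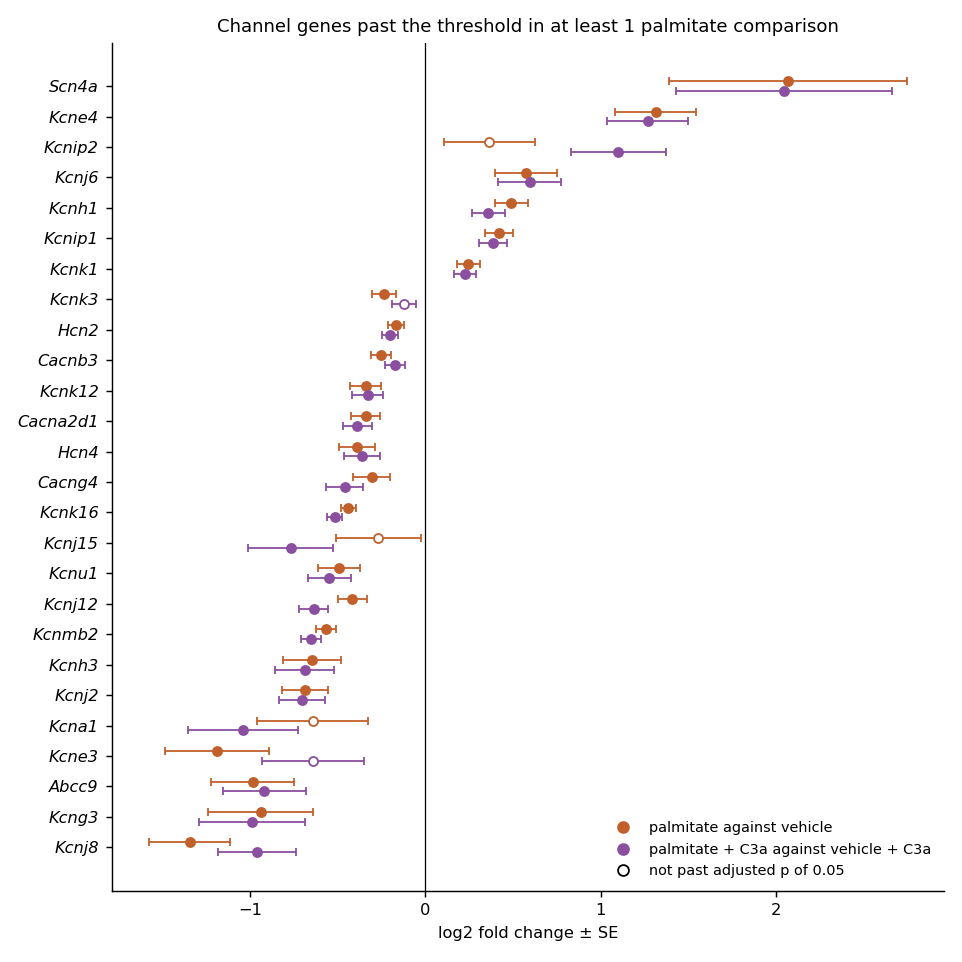
Log2 fold change with its standard error for 26 of the 27 channel genes called in at least 1 palmitate comparison (horizontal axis); filled points passed an adjusted p of 0.05 and open points did not. The 21 plotted genes called in both lie on the same side of 0 in both, with Scn4a and Kcne4 highest in both and Kcnj8 lowest without C3a (-1.35).

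The KATP subunits split by pair. Kcnj8, the pore of the vascular type of KATP channel, fell to 0.39 of its vehicle level, and its partner Abcc9 fell to 0.50, while no change was called in the beta cell pair Kcnj11 and Abcc8. Kcnj8 stood at 9.51, 7.02 and 8.98 CPM in the vehicle libraries, 8.98, 9.93 and 8.16 with C3a, 2.53, 3.67 and 3.85 with palmitate, and 3.06, 4.48 and 6.36 with palmitate and C3a. All 6 palmitate libraries lay below all 6 vehicle libraries. The log2 fold change was -1.35 ± 0.23 (SE) without C3a (edgeR adjusted p = 0.00155) and -0.96 ± 0.22 with it (edgeR adjusted p = 0.00855). The call held when any 1 library was left out. Palmitate with C3a library 3, which stood apart in fibroblast markers, was the highest of its group; without it the log2 fold change was -1.23 (edgeR adjusted p = 0.00127).

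Abcc9, the receptor subunit SUR2, read 23.2, 15.8 and 20.5 CPM with vehicle, 19.0, 22.8 and 16.4 with C3a, 8.50, 12.9 and 8.67 with palmitate, and 7.27, 11.5 and 11.8 with both. Here too the 6 palmitate libraries lay below the 6 others. Its log2 fold changes were -0.99 ± 0.24 (edgeR adjusted p = 0.0144) and -0.92 ± 0.24 (edgeR adjusted p = 0.0185). The first of these calls was lost without vehicle library 1, palmitate library 1 or palmitate library 3 (edgeR adjusted p between 0.0510 and 0.0664). The second was lost without vehicle with C3a library 1 or 2 or palmitate with C3a library 1 (0.0594 to 0.0733). An opposite-strand gene, 5330439B14Rik, overlaps its exons, and the strand setting of the counting is not given in the sources used here.

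Kcnj11 read 63.1, 55.6 and 58.9 CPM with vehicle, 63.5, 60.2 and 58.9 with C3a, 66.3, 64.1 and 58.5 with palmitate, and 70.7, 59.8 and 59.7 with both. Abcc8 read 1017, 974 and 1010 CPM with vehicle, 986, 1033 and 991 with C3a, 993, 1023 and 942 with palmitate, and 1083, 977 and 916 with both. The 4 groups overlapped for each gene. The 95% interval of the palmitate difference on the log2 scale ran from -0.02 to 0.20 for Kcnj11 and from -0.15 to 0.10 for Abcc8 without C3a, and from -0.05 to 0.16 and -0.14 to 0.11 with it. Per length, Kcnj11 exceeded Kcnj8 16.2 to 19.6 times in vehicle, 15.01 to 17.9 times in vehicle with C3a, 37.6 to 64.9 times in palmitate, and 23.2 to 57.1 times in palmitate with C3a libraries. The size of these ratios also depends on the annotated length of the 1 transcript of each gene. Kcnj11 and Abcc8 lie 3758 bases apart on chromosome 7, and Kcnj8 and Abcc9 16247 bases apart on chromosome 6, each pair on the minus strand.

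**Figure D3:**
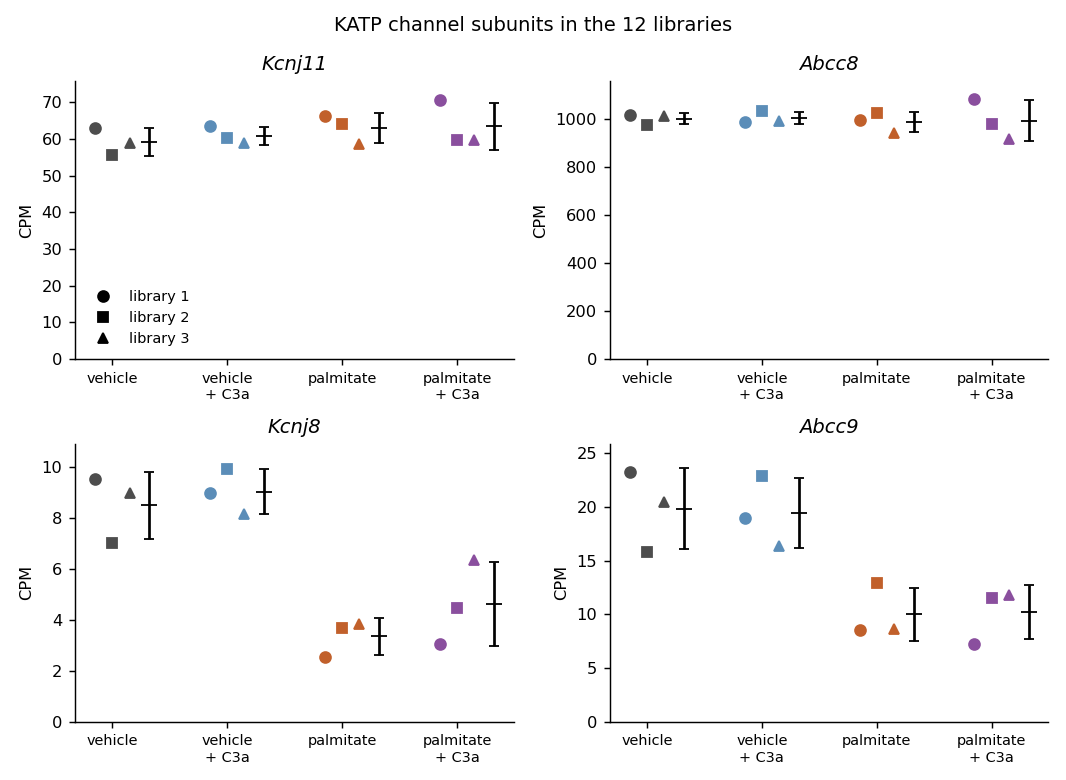
CPM of the 4 KATP channel subunits in each of the 12 libraries (points, shape by library number) with the mean and SD of each group of 3 (dash and bar). For Kcnj8 and Abcc9 all 6 palmitate libraries lie below all 6 vehicle libraries, and for Kcnj11 and Abcc8 the groups overlap.

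Several markers of blood vessel cells were also lower with palmitate. Of 11 mural cell markers tested (pericytes and smooth muscle, Pdgfrb and Rgs5 among them), 5 fell with palmitate (median log2 fold change -0.77) and 3 fell with C3a present (median -0.67). Summed over 12 mural markers, the level was 144 to 218 CPM with vehicle, 147 to 193 with C3a, 92.2 to 122 with palmitate, and 90.2 to 116 with both. Pdgfrb, the platelet-derived growth factor receptor of pericytes, had log2 fold changes of -1.02 (edgeR adjusted p = 0.0152) and -0.76 (0.0469). Of 13 endothelial markers, 9 and 4 fell in the same comparisons, and no marker of either list was called higher. Over all genes, 25.4% and 26.9% were called in either direction, and 12.0% and 13.1% were called lower. With C3a the share of both lists called was near that of all genes called in either direction, and above the share called lower. The endothelial markers had sums of 293 to 407 and 270 to 372 CPM without palmitate and 167 to 296 and 178 to 309 with it. No marker of either list was at 0 in any whole group. Their part in the fall of Kcnj8 and Abcc9 was not tested, and in bulk RNA fewer cells of a type and less RNA per cell cannot be told apart.

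**Figure D4:**
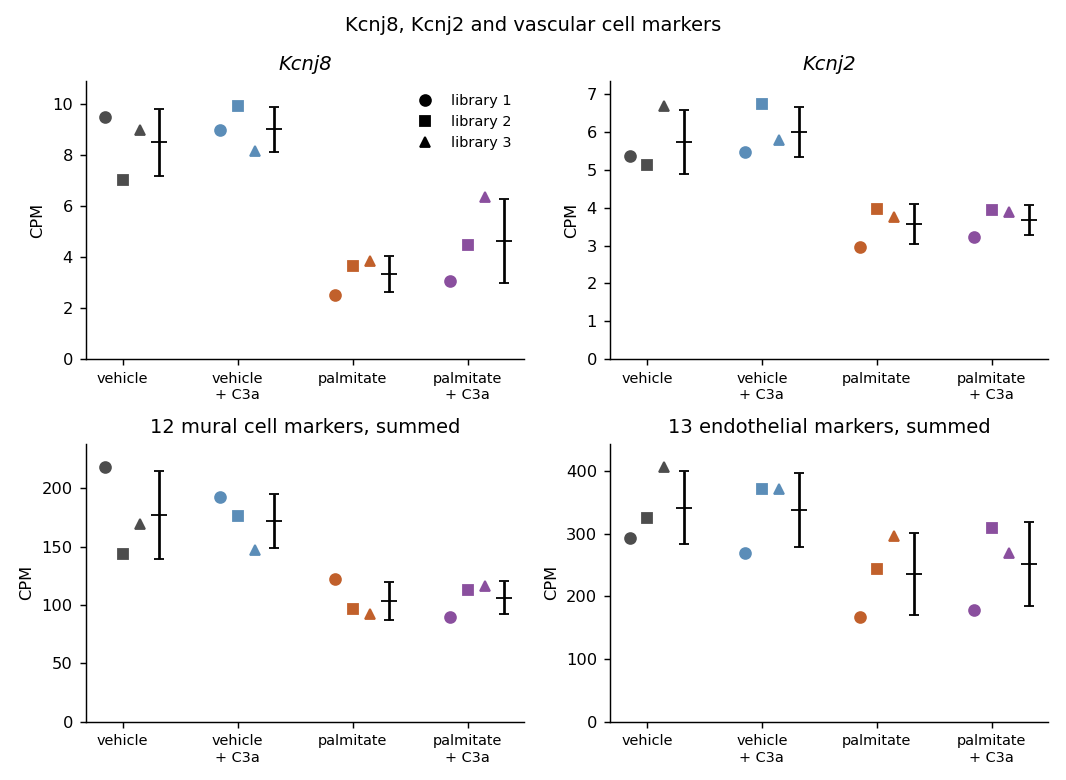
CPM in each library (points, shape by library number) with the mean and SD of each group, for Kcnj8, for Kcnj2, and for the sums of 12 mural and 13 endothelial markers. All 4 panels are lower with palmitate, and the endothelial sums of the groups overlap while those of Kcnj8, Kcnj2 and the mural markers do not.

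The other inward rectifiers held 2 strong rectifiers that fell and a G protein-gated subunit that rose. Of 9 tested, 2 fell and 1 rose without C3a, and 3 fell and 1 rose with it. Over all genes, 25.4% and 26.9% were called. Kcnj2, which sets the resting potential of muscle and vascular cells, read 5.38, 5.12 and 6.69 CPM with vehicle, 5.46, 6.74 and 5.79 with C3a, 2.96, 3.97 and 3.75 with palmitate, and 3.21, 3.94 and 3.88 with both. The palmitate libraries all lay below the vehicle libraries, with log2 fold changes of -0.69 ± 0.13 (edgeR adjusted p = 0.00262) and -0.71 ± 0.13 (0.00204), and the calls held with any 1 library left out. The vascular marker values above stand beside this result as well. Kcnj12, a close relative of Kcnj2, fell by 0.42 ± 0.08 (log2; edgeR adjusted p = 0.00365) and by 0.64 ± 0.08 (0.00021); its 3 vehicle with C3a libraries (11.8, 13.6 and 13.7 CPM) lay above the 3 vehicle libraries (9.02, 10.6 and 11.6).

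Kcnj6, a subunit of the G protein-gated channels through which somatostatin and adrenaline hyperpolarise beta cells, rose from 5.54, 6.73 and 6.48 CPM to 8.18, 11.8 and 7.996, and with C3a from 5.10, 6.63 and 5.15 to 7.61, 10.9 and 7.04. The second library of every group was its highest. For Kcnj6 the log2 fold changes were 0.57 ± 0.18 (edgeR adjusted p = 0.0346) and 0.60 ± 0.18 (0.0291). The first call was lost without any 1 of the 3 vehicle libraries, palmitate library 1 or 2, or vehicle with C3a library 1 (edgeR adjusted p from 0.0505 to 0.143). The second was lost without vehicle with C3a library 1 or 3, or palmitate with C3a library 1 or 2 (0.0743 to 0.132). Its partner subunit Kcnj3 had log2 fold changes of -0.11 and -0.01, neither called. Kcnj15 was called only with C3a (-0.77 ± 0.24, edgeR adjusted p = 0.0347), from 0.948, 1.35 and 1.08 to 0.517, 0.661 and 0.793 CPM. Without C3a its log2 fold change was -0.27, and the difference between both effects did not pass (-0.50 ± 0.34, edgeR adjusted p = 1.00). The Kcnj15 call was lost without any 1 of the vehicle with C3a libraries or palmitate with C3a library 1 or 2 (0.0530 to 0.136).

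Among 2-pore-domain channels, which carry background potassium current, Kcnk16 fell and Kcnk1 rose in both comparisons. Kcnk16 encodes TALK-1, the background channel known from beta cells, and had the smallest adjusted p of all channel genes. It read 146, 116 and 121 CPM with vehicle, 148, 123 and 121 with C3a, 113, 84.3 and 86.0 with palmitate, and 104, 84.2 and 85.0 with both. Within each group the batch 1 library was highest, and all 6 palmitate libraries lay below all 6 others. The log2 fold changes were -0.44 ± 0.04 (edgeR adjusted p = 3.01e-05) and -0.52 ± 0.04 (9.84e-06), or 0.74 and 0.70 of the level without palmitate. Leaving out any 1 library gave edgeR adjusted p up to 0.000431 and 0.000122. Without the batch term the first value was -0.44 with an edgeR adjusted p of 0.0728.

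Kcnk1, which encodes the weak background channel TWIK-1, rose from 31.5, 39.5 and 39.8 to 41.6, 43.5 and 46.3 CPM, and with C3a from 33.9, 36.6 and 36.8 to 42.3, 40.9 and 42.3. These are log2 fold changes of 0.25 ± 0.06 (edgeR adjusted p = 0.0153) and 0.23 ± 0.06 (0.0222). The groups did not overlap. The calls were lost without vehicle library 1 or palmitate library 1 or 3 (edgeR adjusted p 0.0560 to 0.0718), and without any 1 of the vehicle with C3a libraries or palmitate with C3a library 1 (0.0626 to 0.123). Kcnk12, chosen for mention after its values were seen, fell in both (-0.34 ± 0.09 and -0.33 ± 0.09), and its level split by batch: 3.29 to 4.38 CPM in batch 1 and 8.25 to 12.3 in batch 2. Its calls were lost without vehicle library 1 or 3 or palmitate library 3 (0.0585 to 0.0660), and without vehicle with C3a library 2 or palmitate with C3a library 1 (0.0534 to 0.0891). Kcnk3, the acid-sensitive TASK-1, was called only without C3a (-0.24 ± 0.07, edgeR adjusted p = 0.0260, against -0.12 with C3a), and this call was lost without vehicle library 2 or 3 or palmitate library 3 (0.0514 to 0.112). The difference between both effects did not pass (0.11 ± 0.10, edgeR adjusted p = 1.00).

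Of 26 voltage-gated potassium pores tested, 1 rose and 1 fell without C3a, and 1 rose and 2 fell with it, where 25.4% and 26.9% of all genes were called. At an unadjusted p under 0.05 there were 5 and 7 of the 26, against 36.4% and 37.2% of all genes. Kcnh2 (-0.12 and -0.21) and Kcnh6 (-0.18 and -0.11), pores of the ERG family, were not called; the value for Kcnh2 with C3a came close, at an edgeR adjusted p of 0.0532. Kcnb2, Kcnc1, Kcnd3 and Kcnq1 gave log2 fold changes between -0.29 and 0.58 over both comparisons, none called.

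Kcnh1, a pore of the ether-a-go-go family, rose from 14.6, 20.9 and 21.5 to 24.1, 28.9 and 27.0 CPM, and with C3a from 16.8, 22.5 and 19.3 to 24.0, 27.3 and 23.8. Batch 1 libraries were the lowest in 3 of the 4 groups, and the palmitate libraries lay above their vehicle libraries. The log2 fold changes were 0.49 ± 0.09 (edgeR adjusted p = 0.00285) and 0.36 ± 0.09 (0.0150). The second call was lost without vehicle with C3a library 1 or 3 or palmitate with C3a library 1 or 2 (0.0504 to 0.0765). Kcnh3, of the same wider family, fell from 2.36, 2.88 and 3.02 to 1.90, 1.84 and 1.56 CPM, and with C3a from 2.89, 2.77 and 2.81 to 1.66, 1.98 and 1.61. Its log2 fold changes were -0.65 ± 0.17 (edgeR adjusted p = 0.0145) and -0.69 ± 0.17 (0.0101), the first lost without vehicle library 3 or palmitate library 3 (0.0660 and 0.0705). Exons of Kcnh3 overlap those of Mcrs1 on the opposite strand, and the same holds, with other genes, for Cacna1a, Cacna1d, Cacna1h, Cacnb2, Hcn3, Kcnd3, Kcne3, Kcnh7, Kcnj3, Kcnj6, Kcnj15, Kcnk1, Kcnk2, Kcnk3, Kcnma1, Kcnn2, Kcnq1 and Scn9a among the genes named here, so their values are uncertain to that extent.

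Kcna1, a low-threshold pore best known from axons, was called only with C3a (-1.04 ± 0.31, edgeR adjusted p = 0.0290; -0.65 ± 0.32 without C3a). The difference between both effects did not pass (-0.40 ± 0.44, edgeR adjusted p = 1.00). It read 2.17, 1.79 and 1.59 CPM in vehicle with C3a and 0.886, 1.15 and 0.634 in palmitate with C3a. Leaving out any 1 of the vehicle with C3a libraries or palmitate with C3a library 1 or 3 ended its call (0.0590 to 0.108). Of 5 neuronal markers tested, 2 fell in each palmitate comparison, where 12.0% and 13.1% of all genes fell. The sum of 7 was 74.9 to 81.8 and 76.0 to 91.1 CPM without palmitate, and 53.9 to 56.3 and 52.9 to 69.6 with it. The part of these markers was not tested. Of the silent subunits, which form no channel alone and modify those they join, Kcng3 fell from 3.18, 3.75 and 4.12 to 1.66, 2.97 and 1.14 CPM (-0.94 ± 0.30, edgeR adjusted p = 0.0390; -0.99 ± 0.30 and 0.0310 with C3a).

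The Kcng3 calls were fragile. The first was lost without any 1 of the 6 vehicle and vehicle with C3a libraries, palmitate library 1 or 3, or palmitate with C3a library 2 (edgeR adjusted p from 0.0508 to 0.125). The second was lost without any 1 of the vehicle with C3a libraries or palmitate with C3a library 2 or 3 (0.0568 to 0.111). In batch 2 alone the log2 fold changes of Kcng3 were -0.94 and -1.24 (edgeR adjusted p of 0.160 and 0.0755). Kcnf1, the silent subunit with the highest level (2.97 TPM), had log2 fold changes of 0.18 and 0.44, neither called.

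The accessory subunits of voltage-gated potassium channels had a median log2 fold change of 0.15 without C3a and 0.19 with it. Of 9 tested, 2 rose and 1 fell without C3a, and 3 rose and none fell with it, where 25.4% and 26.9% of all genes were called. Kcne4, a single-span subunit that inhibits several voltage-gated channels, read 1.24, 0.857 and 0.982 CPM with vehicle, 1.53, 1.02 and 0.818 with C3a, 2.61, 1.89 and 3.03 with palmitate, and 3.21, 2.18 and 2.58 with both. Every palmitate library exceeded every vehicle library. Kcne4 changed by 1.31 ± 0.23 (edgeR adjusted p = 0.00166) and 1.27 ± 0.23 (0.00188) on the log2 scale, and the calls held with any 1 library left out and in batch 2 alone.

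Kcnip1, a calcium-binding partner of transient (A-type) potassium channels, was the most abundant accessory subunit. It read 65.7, 61.1 and 68.6 CPM with vehicle, 67.2, 58.9 and 70.0 with C3a, 78.6, 88.2 and 94.8 with palmitate, and 79.5, 84.8 and 92.0 with both. The palmitate libraries again lay above all others, by 0.42 ± 0.08 (edgeR adjusted p = 0.00308) and 0.39 ± 0.08 (0.00471) on the log2 scale, and leaving out any 1 library kept both calls. Kcnip2, of the same family, was called only with C3a (1.10 ± 0.27, edgeR adjusted p = 0.0108), from 0.496, 0.697 and 0.641 to 1.11, 1.72 and 1.11 CPM. Without C3a its log2 fold change was 0.37, and the difference between both effects did not pass (0.74 ± 0.38, edgeR adjusted p = 1.00). Its most abundant transcript, 52.2% of the gene's counts, gave -0.06 when tested alone.

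Kcne3, a single-span partner of the Kcnq1 pore, fell from 4.96, 5.41 and 6.17 to 1.11, 3.16 and 3.45 CPM (-1.19 ± 0.30, edgeR adjusted p = 0.0128). With C3a it went from 3.93, 6.11 and 4.73 to 1.26, 4.16 and 4.60 CPM (-0.64 ± 0.29, edgeR adjusted p = 0.133). Both batch 1 palmitate libraries were by far the lowest. The difference between both effects did not pass (0.55 ± 0.41, edgeR adjusted p = 1.00), and without palmitate library 1 the log2 fold change was -0.97 (edgeR adjusted p = 0.0587).

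Among calcium- and sodium-activated potassium channels, 2 of 10 tested fell in each comparison and none rose. Of all genes, 25.4% and 26.9% were called, with 12.0% and 13.1% lower. Kcnmb2, the subunit that makes large-conductance (BK) channels inactivate, read 109, 95.2 and 96.1 CPM with vehicle, 104, 99.5 and 95.3 with C3a, 65.2, 68.9 and 68.2 with palmitate, and 61.4, 63.7 and 64.9 with both. The palmitate libraries lay below all others with a narrow spread. The log2 fold changes were -0.57 ± 0.06 (edgeR adjusted p = 3.99e-05) and -0.65 ± 0.06 (1.49e-05), and both calls held in every setting tried. The BK pore gene, Kcnma1, was not called (0.07 ± 0.14 and 0.12 ± 0.14). Kcnu1, a pore known from sperm, fell by 0.49 ± 0.12 (edgeR adjusted p = 0.0112) and 0.55 ± 0.12 (0.00603) on the log2 scale, with no overlap between groups. Kcnn3, a small-conductance channel, had log2 fold changes of -0.18 and -0.17 and was not called; 64.9% of its counts came from a transcript annotated as retained intron.

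None of the 9 calcium channel pore genes tested was called in either palmitate comparison, where 25.4% and 26.9% of all genes were. At an unadjusted p under 0.05 there were 2 of the 9 in each comparison, against 36.4% and 37.2% of all genes. Cacna1d and Cacna1c, the L-type pores that carry most glucose-driven calcium entry, had log2 fold changes of -0.13 ± 0.13 and -0.21 ± 0.13 without C3a and -0.09 ± 0.13 and -0.18 ± 0.13 with it. Cacna1a, the P/Q-type pore, gave -0.28 ± 0.12 and -0.16 ± 0.12. The smallest edgeR adjusted p among the pores was 0.0978 without C3a, for the N-type pore Cacna1b (-0.32 ± 0.13), and 0.0939 with C3a. Of the T-type pores, Cacna1g gave 0.24 and 0.42 and Cacna1h -0.15 and 0.07. Cacna1e, the R-type pore, gave -0.45 and -0.09, but 29.9% of its counts were in coding transcripts, so its gene sum says little about the coding RNA.

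The auxiliary calcium channel subunits fell with palmitate where they were called. Cacna2d1, the alpha2delta subunit that carries pores to the membrane, read 215, 228 and 236 CPM with vehicle, 209, 253 and 216 with C3a, 168, 198 and 170 with palmitate, and 174, 187 and 156 with both. The palmitate libraries lay below all others. The log2 fold changes were -0.34 ± 0.08 (edgeR adjusted p = 0.0108) and -0.39 ± 0.08 (0.00500), the first lost without palmitate library 1 (0.0526). Cacnb3, the main islet beta subunit by level, fell from 67.8, 69.3 and 79.1 to 57.1, 59.7 and 64.1 CPM (-0.26 ± 0.06, edgeR adjusted p = 0.00725). With C3a it went from 65.3, 73.2 and 77.1 to 57.3, 64.5 and 69.3 CPM (-0.17 ± 0.06, edgeR adjusted p = 0.0435), with overlap between groups.

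The first Cacnb3 call was lost without vehicle library 3 (edgeR adjusted p = 0.0517). The second was lost without any 1 of the vehicle with C3a libraries, palmitate with C3a library 1 or 2, vehicle library 1, or palmitate library 1 or 3 (0.0513 to 0.147). Cacnb2, the other abundant beta subunit, gave -0.15 and -0.22 and was not called. Cacng4, of the gamma family that also serves glutamate receptors, fell by 0.46 ± 0.10 with C3a (edgeR adjusted p = 0.00675), from 7.58, 7.25 and 7.08 to 5.87, 5.66 and 4.48 CPM. Without C3a it stood just inside the threshold (-0.31 ± 0.10, edgeR adjusted p = 0.04997). That call was lost without any 1 of the vehicle, vehicle with C3a or palmitate libraries, or palmitate with C3a library 1 (0.0643 to 0.149).

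Of the pacemaker channels, Hcn2 and Hcn4 fell in both comparisons and Hcn3 was not called. Hcn2 read 27.0, 46.1 and 46.0 CPM with vehicle, 28.2, 47.4 and 46.9 with C3a, 25.5, 38.3 and 41.7 with palmitate, and 24.6, 40.8 and 41.1 with both. The batch 1 library was the lowest of each group, and the groups overlapped. With the batch term the log2 fold changes were -0.17 ± 0.05 (edgeR adjusted p = 0.0220) and -0.20 ± 0.05 (0.00756), and in batch 2 alone they were -0.20 and -0.21 and not called (edgeR adjusted p of 0.0751 and 0.0616). The first Hcn2 call was lost without vehicle library 2 or 3 or palmitate library 2 (0.0730 to 0.105). Hcn4 fell by 0.39 ± 0.10 (edgeR adjusted p = 0.0150) and 0.36 ± 0.10 (0.0214) on the log2 scale. Its calls were lost without vehicle library 3 (0.0578), and without vehicle with C3a library 1 or 2 or palmitate with C3a library 1 or 3 (0.0624 to 0.0838).

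The sodium channel pores with the highest levels, Scn9a and Scn3a, showed no called change (-0.24 and 0.16 without C3a, -0.30 and 0.29 with it). Scn4a, the sodium pore of skeletal muscle, was called higher in both (2.07 ± 0.68, edgeR adjusted p = 0.0430, and 2.05 ± 0.62, 0.0285) at a level near the detection limit. It read 0.0827, 0.102 and 0 CPM with vehicle, 0.180, 0.0697 and 0.0663 with C3a, 0.593, 0.216 and 0.140 with palmitate, and 0.591, 0.373 and 0.297 with both.

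The Scn4a calls rested on few counts. The first was lost without vehicle library 1 or 3, any 1 of the vehicle with C3a or palmitate libraries, or palmitate with C3a library 1 or 2 (edgeR adjusted p from 0.0532 to 0.175). The second was lost without any 1 of the 6 vehicle with C3a and palmitate with C3a libraries (0.0517 to 0.0883). Leaving out vehicle library 3 left 14 channel genes called without C3a, and leaving out vehicle with C3a library 1 or 2 left 15 or 16 called with it. Across all channel genes called, 10 of 24 without C3a and 14 of 25 with it held the call with each library left out in turn. With group alone in the fit, 16 of the 24 and 13 of the 25 calls were lost. In batch 2 alone, which has 2 libraries a group and needs no batch term, 12 and 15 were lost. Kcnj8, Kcnj2, Kcne4, Kcnip1 and Kcnmb2 held in both comparisons under all of these. Over all genes, too, fewer were called without the batch term and in batch 2 alone, as given below.

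C3a changed no channel gene by the same threshold, within palmitate or within vehicle, and no gene of all 15794 (edgeR, 0.0% called in each). At an unadjusted p under 0.05 there were 3 channel genes within palmitate and 2 within vehicle, where 2.72% and 2.20% of all genes reached it. DESeq2 called 2 genes of the whole table within palmitate and 15 within vehicle, with no channel gene among them. Among the 3 genes nearest to a call within palmitate were Kcnk2 (1.18 ± 0.43) and Scn7a (0.60 ± 0.27), each with an edgeR adjusted p of 1.00. Within vehicle they were Kcnj12 (0.33 ± 0.08), Kcnn2 (0.48 ± 0.20) and Kcna3 (1.30 ± 0.61), again at 1.00. Counts were few for Kcnk2 (194 over all libraries, with 38.1% of them in coding transcripts) and for Kcna3 (90).

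The intervals give the C3a effects that the values allow for 1 gene at a time, without adjustment. They do not give the effect size that would have passed the adjusted threshold. For 19 of the 20 channel genes with the highest levels, the log2 fold change of C3a ran from -0.12 to 0.08 within palmitate and from -0.13 to 0.12 within vehicle, and all 95% intervals, which reached from -0.48 to 0.31 and from -0.41 to 0.30, contained 0. For Kcnj11 they ran from -0.10 to 0.11 and from -0.07 to 0.15, and for Abcc8 from -0.12 to 0.13 in both. Kcnj8 was higher with C3a within palmitate by 0.47 ± 0.23 and was not called (edgeR adjusted p = 1.00). The test of whether the palmitate effect differed with C3a called no channel gene (edgeR; 0 at an unadjusted p under 0.05, where 1.59% of all genes had one, and 0 by DESeq2). The genes nearest to a call there were Kcnh7 (0.67 ± 0.34), Kcnip2 (0.74 ± 0.38) and Kcnh8 (-0.39 ± 0.21). For Kcnj8 the difference was 0.39 ± 0.32 (edgeR adjusted p = 1.00).

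**Figure D5:**
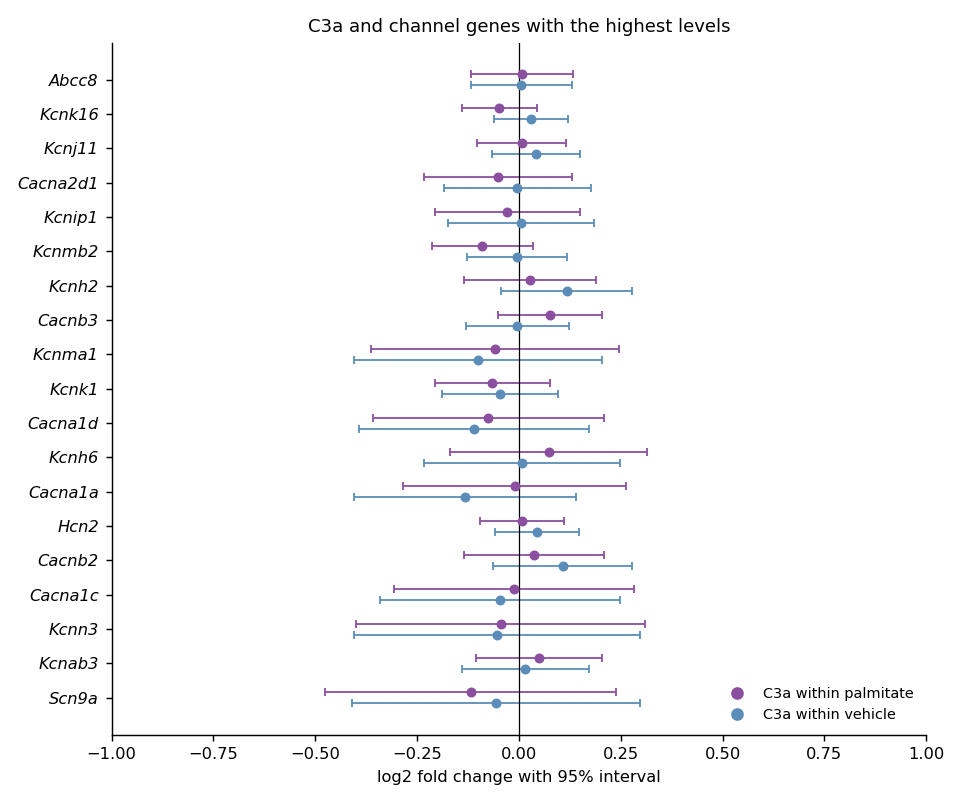
Log2 fold change with its 95% interval for the effect of C3a, in islets with palmitate and in islets with vehicle, for 19 of the 20 channel genes with the highest mean TPM. Every interval contains 0, with values between -0.13 and 0.12.

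Genes that work with the channels gave the wider setting: glucose entry, ion pumps, calcium stores and channel regulators. Of 100 such genes tested, 12 rose and 18 fell without C3a, and 13 rose and 20 fell with it (25.4% and 26.9% of all genes were called), and the median log2 fold change was -0.05 in both. Slc2a2, the glucose transporter of beta cells, read 561, 516 and 522 CPM with vehicle, 569, 606 and 511 with C3a, 243, 331 and 309 with palmitate, and 244, 294 and 331 with both (-0.87 ± 0.12, edgeR adjusted p = 0.000517, and -0.96 ± 0.12, 0.000248). Slc2a2 is also among the beta cell markers above. Atp1b2, a subunit of the sodium pump, had log2 values of -1.09 ± 0.11 (edgeR adjusted p = 3.49e-05) and -1.15 ± 0.11 (2.19e-05). Dpp10, a partner of A-type potassium channels beside Kcnip1, fell by 1.25 ± 0.11 (edgeR adjusted p = 2.77e-05) and 1.23 ± 0.11 (2.63e-05).

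Gem, a small GTPase that inhibits voltage-gated calcium channels, rose from 3.93, 3.69 and 2.81 to 5.77, 7.75 and 6.41 CPM (0.93 ± 0.20, edgeR adjusted p = 0.00558), and by 1.21 ± 0.20 with C3a (0.00103). Mcu, the mitochondrial calcium uniporter, rose by 0.65 ± 0.08 (edgeR adjusted p = 0.000165) and 0.61 ± 0.08 (0.000197). Mcoln1, a lysosomal cation channel, rose by 0.52 ± 0.06 and 0.63 ± 0.06, and Tmem38b, a potassium channel of the endoplasmic reticulum, by 0.55 ± 0.08 and 0.41 ± 0.08. These genes had groups that did not overlap in either comparison, as had 29.8% and 30.0% of all genes. They were named as the called partner genes with the largest changes, so the lack of overlap follows in part from that choice.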

How the data were processed

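PolyA RNA from 12 islet cultures was sequenced from a stranded library kit, per the labels' protocols. The deposited values were whole-number estimated counts per transcript made by the authors; kallisto, DESeq2 and GRCm38 are named in the submitters' processing notes, without versions or a strand setting. Transcripts were summed to genes with GENCODE M21 (69942 of 71524 matched; 0.58% to 0.68% of counts were unmatched). Genes were tested with edgeR 4.0.16 in R 4.3.3 (quasi-likelihood, robust, TMM scaling, default filter on low counts), with group and sequencing batch as terms over all 12 libraries and Benjamini-Hochberg adjustment. SEs are the log2 fold change over the root of F. CPM used TMM library sizes and TPM annotated exon lengths. The fit was run on simulated counts with the same spread for every gene, independent libraries and no batch effect. That run cannot show how the fit handles the batch or libraries that vary together.

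Per the labels, libraries 2 and 3 of every group carry date-like tags, 1 tag shared by all libraries numbered 2 and another by all numbered 3; what the tags date is not stated. Same-numbered libraries deviated together (18 pairs, lowest correlation 0.395, mean 0.575), which includes the batch; within batch 2 the lowest of 12 pairs was 0.08. Alternatives were a replicate block, no batch term, batch 2 alone, DESeq2 1.42.0, RLE size factors, no filter, only the groups compared, the most abundant transcript alone, and each library left out. Named genes were the KATP subunits, up to 10 called genes at each end per comparison, the 2 highest per family, known islet pores, up to 3 partner genes per direction, and the 3 smallest p where none was called. Members and lists were chosen with earlier results of these data known. Some items are not reported here.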

Additional observations from a re-analysis of the deposited data

How the results depend on the processing

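Without the batch term, 1841 genes and 8 channel genes were called for palmitate against vehicle, and 2074 and 12 with C3a in both arms, against 4005 and 24, and 4246 and 25, as reported. In batch 2 alone the counts were 2058 and 13, and 2331 and 12. Leaving out 1 library gave 14 to 27 and 15 to 26 channel genes, and 2760 to 4228 and 3023 to 4260 genes. With the replicate block, 26 and 27 channel genes and 4612 and 4779 genes were called, and the block ended none of the 62 calls on single genes. For C3a within palmitate, where edgeR called 0 genes, batch 2 alone gave 1, DESeq2 2 and leaving out 1 library 0 to 1. For C3a within vehicle, also 0, no filter on low counts gave 3, only the groups compared 2, DESeq2 15 and leaving out 1 library 0 to 1. The log2 fold change of Kcnip2 with C3a turned to -0.060 for its most abundant transcript alone. The cause was not tested. Of the 62 calls, 23 held in every setting that gave a value and 24 were lost on leaving out at least 1 library. The most abundant transcript alone, tested among all transcripts, ended 34 of the 47 calls that could be compared. Both Kcnip1 calls and both Cacna2d1 calls were among those lost there. With 3 libraries a group, and 22216420 to 50264695 counts each, genes under about 1 CPM rest on few counts. The interaction could not be run with only the groups compared.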

Other observations

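Some channel genes differed more between sequencing batches than between treatments. Kcnh7, an ERG-family pore, stood at 4.01, 4.69, 4.62 and 5.72 CPM in the 4 batch 1 libraries, and at 0.581 to 1.27 CPM in the 8 batch 2 libraries. Kcnj3, a G protein-gated inward rectifier, stood at 4.06 to 6.33 CPM in batch 1 and 2.27 to 3.13 in batch 2. Each batch held libraries of all 4 groups.

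Single transcripts gave a partly separate view. Of 228 channel transcripts tested, 2 rose and 5 fell with palmitate, where 3.99% of 41537 transcripts were called, and 1 rose and 5 fell with C3a in both arms (4.76%). The transcript Kcnma1-206, 13.1% of the counts of the BK pore gene, rose by 0.71 ± 0.12 (log2; edgeR adjusted p = 0.0106) while the gene sum was not called. With C3a the value was 0.20 and not called, and the test of the difference between both effects is not given here. The single Kcnj8 transcript kept its values when tested among transcripts (-1.36 and -1.01), with edgeR adjusted p of 0.0232 and 0.0690.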
